A study of Mus musculus with 52 samples.

Results

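The genes described here are 10 members of the prostaglandin pathway, chosen by name out of 24421 gene symbols counted in each library. They are the cyclooxygenases Ptgs1 and Ptgs2, the terminal prostaglandin E synthases Ptges, Ptges2 and Ptges3, the prostaglandin D synthase Ptgds, the prostaglandin E receptors Ptger1, Ptger2 and Ptger4, and Hpgd, which inactivates prostaglandins. They were measured by RNA sequencing in Cilia-APEX-IMCD3 cells, an immortalised line from the inner medullary collecting duct of the mouse kidney. The study asked what missense alleles of Wdr34 and Wdr60, which encode intermediate chains of the dynein-2 motor of cilia, do to the transcriptome. In all, 13 sets of libraries were sequenced, each a clone in 1 state with 4 libraries that the study describes as technical replicates. They are called clones here, although 1 clone may stand in both states.

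In ciliated cells the homozygous mutant clones were Wdr34-1, Wdr34-3 and Wdr60 and the control clones were D8, H12, A4 and G7. By its own description the study compared ciliated mutants with fewer control clones, which it does not name, than the 4 used here. In non-ciliated cells the homozygous mutant clones were Wdr34 and Wdr60 and the control clones were AB, Co1, Co2 and Co3. The mutations were made by cytosine base editing with BE4-Gam and copy human disease alleles. They are an Arg-to-Trp and a Gly-to-Ser change in Wdr34 and an Ala-to-Val change in Wdr60, the Gly-to-Ser clone with an additional heterozygous Gly-to-Asp change and the Wdr60 clone with an additional heterozygous silent change. By the study's description of its clones, the non-ciliated Wdr34 clone carries the Arg-to-Trp change, while the labels do not say which Wdr34 allele the ciliated clones Wdr34-1 and Wdr34-3 carry. Control clones received the same base editor and a guide vector without a target sequence. All clones grew from single sorted cells, so a genotype within a state rests on 1 to 4 clones, and the labels do not say which clones of the 2 states are the same. The study describes a single Wdr60 clone and a single Arg-to-Trp clone, so mutants of the 2 states may be the same clones and are not independent of each other. By the study's methods the ciliated cells were starved of serum to grow cilia, whereas the labels give the same medium with serum for all samples. Cilia, any difference in serum and the time of sequencing cannot be told apart between the states.

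Prostaglandins are lipid signals made on demand from arachidonic acid, which phospholipases release from membranes. Cyclooxygenases turn it into prostaglandin H, and terminal synthases turn that into prostaglandin E, D or other prostanoids, which leave the cell and act on G protein coupled receptors nearby. In the kidney medulla prostaglandin E is known to oppose salt and water reabsorption by the collecting duct, and Ptgs2 is known as an inducible enzyme that responds to growth factors, tonicity and stress.

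The library totals ran from 14816218 to 28084979 counts, and G7 replicate 4 was the deepest, with the next at 21100046. Libraries of a clone differed by more than sampling noise, with a chi-square per degree of freedom of at least 1.99 between any pair. The 4 libraries were least alike in AB and non-ciliated Wdr60, where replicate 1 stood apart, in A4, where replicate 1 did, in G7, where replicate 4 did, and in ciliated Wdr60, where replicates 1 and 2 differed from 3 and 4. Wdr34, in which a missense change need not alter the RNA level, gave a log2 fold change in mutants of -0.04 in ciliated cells (SE 0.15, adjusted p = 0.913, edgeR) and 0.18 in non-ciliated cells (adjusted p = 0.329, edgeR). Wdr60 gave -0.20 (adjusted p = 0.0471) and 0.23 (adjusted p = 0.0394). These fold changes take together clones edited in either gene. The level of Wdr34 was lowest in Wdr34-3, at 21.7 ± 1.99 CPM (counts scaled to a common library total; SD over 4 libraries). It was highest in the other ciliated mutants, Wdr60 at 49.5 ± 9.52 CPM and Wdr34-1 at 46.1 ± 4.62 CPM. The control clones G7 and Co2 differed from the other controls of their state in markers of renal epithelium, in both directions. Cdh1, the epithelial cadherin, was at 14.4 CPM in G7 and 4.22 CPM in Co2 and between 241 and 649 CPM in the other 11 clones, and Epcam was at 13.5, 2.86 and between 182 and 836 CPM. Cdh16, Pax2, Pax8 and Hoxb7, by contrast, were highest of all clones in G7, at 841, 310, 419 and 83.4 CPM. Of 10 tested markers of this list edgeR called 2 higher and 5 lower in G7 against the other controls, where 18.2% of all genes were called, and of 11 it called 1 higher and 5 lower in Co2, where 12.9% were called. A call is an adjusted p under 0.05 with a log2 fold change of at least 1. Of 14 markers of renal and collecting duct epithelium, 9 were above 1 CPM in every clone and 2, Aqp2 and Elf5, were below 1 CPM in every clone. The summed level of this list was 1122 to 4432 CPM in a clone. All 5 endothelial markers were below 1 CPM in every clone, with a sum of at most 0.186 CPM. The 6 fibroblast markers summed to 1.34 to 31.6 CPM, the highest in Wdr34-3, where Dcn was at 29.2 CPM. The 5 macrophage markers summed to 18.4 to 298 CPM, mostly Csf1r, which was at 169 to 297 CPM in ciliated and 15.9 to 49.2 CPM in non-ciliated clones, with Adgre1 at 0 counts. The 3 proximal tubule markers summed to at most 447 CPM, nearly all of it Lrp2, which was at 447 CPM in G7 and 272 CPM in Co2 and was called lower in non-ciliated mutants (adjusted p = 0.000891, edgeR), with Slc34a1 at 0 counts. The 3 markers of cycling cells summed to 1040 to 1715 CPM. The part of these marker levels in the members' levels was not tested.

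The promoters of 3 members are shown because their genes varied most between clones: Ptgds, the only member called between mutants and controls, and the cyclooxygenase genes Ptgs1 and Ptgs2. Each is 300 bases of RefSeq on GRCm38.p6, from 250 bases before to 50 bases after the start that RefSeq gives, written 5′ to 3′ on the strand of the gene. The RefSeq start of Ptgds lies inside the gene's span in GENCODE, so that window is within the gene by the latter annotation. Capitals mark matches to the 6 motifs searched on both strands.
Ptgds, chr2:25469700-25469999, minus strand: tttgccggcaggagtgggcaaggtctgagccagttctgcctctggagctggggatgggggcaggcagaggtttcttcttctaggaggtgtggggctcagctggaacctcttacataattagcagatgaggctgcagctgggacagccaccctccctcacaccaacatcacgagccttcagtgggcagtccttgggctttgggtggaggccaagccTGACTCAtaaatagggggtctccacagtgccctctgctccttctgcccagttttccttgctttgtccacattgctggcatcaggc
Ptgs1, chr2:36230176-36230475, plus strand: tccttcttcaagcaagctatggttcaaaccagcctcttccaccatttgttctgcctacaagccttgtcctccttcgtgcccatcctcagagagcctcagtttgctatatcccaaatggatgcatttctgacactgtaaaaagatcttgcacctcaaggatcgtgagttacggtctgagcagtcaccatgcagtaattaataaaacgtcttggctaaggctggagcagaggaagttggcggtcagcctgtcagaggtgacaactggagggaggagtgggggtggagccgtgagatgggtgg
Ptgs2, chr1:150099781-150100080, plus strand: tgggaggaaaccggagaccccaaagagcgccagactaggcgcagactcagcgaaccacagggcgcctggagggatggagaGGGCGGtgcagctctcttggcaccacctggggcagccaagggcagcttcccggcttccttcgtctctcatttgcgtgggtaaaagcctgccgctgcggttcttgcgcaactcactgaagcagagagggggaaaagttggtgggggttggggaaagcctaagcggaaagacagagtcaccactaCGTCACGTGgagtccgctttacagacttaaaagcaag

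The motifs and the share of 32851 promoters of this length that hold them were the TATA box TATAAA (13.6%), the cyclic AMP response element TGACGTCA (1.79%) and its shorter form TGACG (20.8%), the E-box CACGTG (7.15%), the GC box GGGCGG (35.7%) and the AP-1 site TGANTCA (7.81%). The Ptgds promoter held 1 match, to TGANTCA, at -35 from the RefSeq start. The Ptgs2 promoter held GGGCGG at -170, TGACG on the opposite strand at 14 and CACGTG at 17, and the latter 2 matches share 2 bases. The Ptgs1 window held none of these letters. The GC content was 57.7% for Ptgds, 50.7% for Ptgs1 and 59.3% for Ptgs2.

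Of the 10 genes, 7 were above the filter on low counts and were tested. Ptger2 and Hpgd had 0 counts in all 52 libraries. A count of 0 allows up to 3 counts in a library, which is 0.107 to 0.202 CPM at these depths and covers counting error only. Ptges, the inducible prostaglandin E synthase of the microsomes, had 0 to 4 counts in a library, 34 counts in all and at most 0.198 CPM. The synthases measured at a level were thus Ptges2, Ptges3 and Ptgds, and the prostaglandin E receptors measured at a level were Ptger1 and Ptger4.

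Levels between genes can be compared only per length of exon. Averaged over the 13 clones, Ptges3 was highest with 111 CPM per kb, Ptgs2 had 24.7, Ptger4 22.9, Ptgds 9.04, Ptges2 7.60, Ptger1 6.79, Ptgs1 2.66 and Ptges 0.010 CPM per kb. Ptges3, also known as p23, is a co-chaperone of Hsp90 besides its synthase activity, and copies of it lie elsewhere in the genome as pseudogenes, so its counts may miss or include reads of these. The members differed widely in how far they varied. The highest clone mean was 2.16 times the lowest for Ptges3, 2.47 times for Ptges2, 3.66 times for Ptger1, 7.83 times for Ptger4, 75.8 times for Ptgs1 and 195 times for Ptgs2. Ptgds ran from 0 or 1 count a library in Co1, too few for a ratio, to 41.8 CPM in Wdr34-3. With the clones put in order of their means, the libraries of neighbouring clones did not overlap in 6 of 12 steps for Ptgs1 and Ptger4, 5 for Ptgs2 and Ptgds, 2 for Ptges2 and 1 for Ptges3 and Ptger1.

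**Figure D1:**
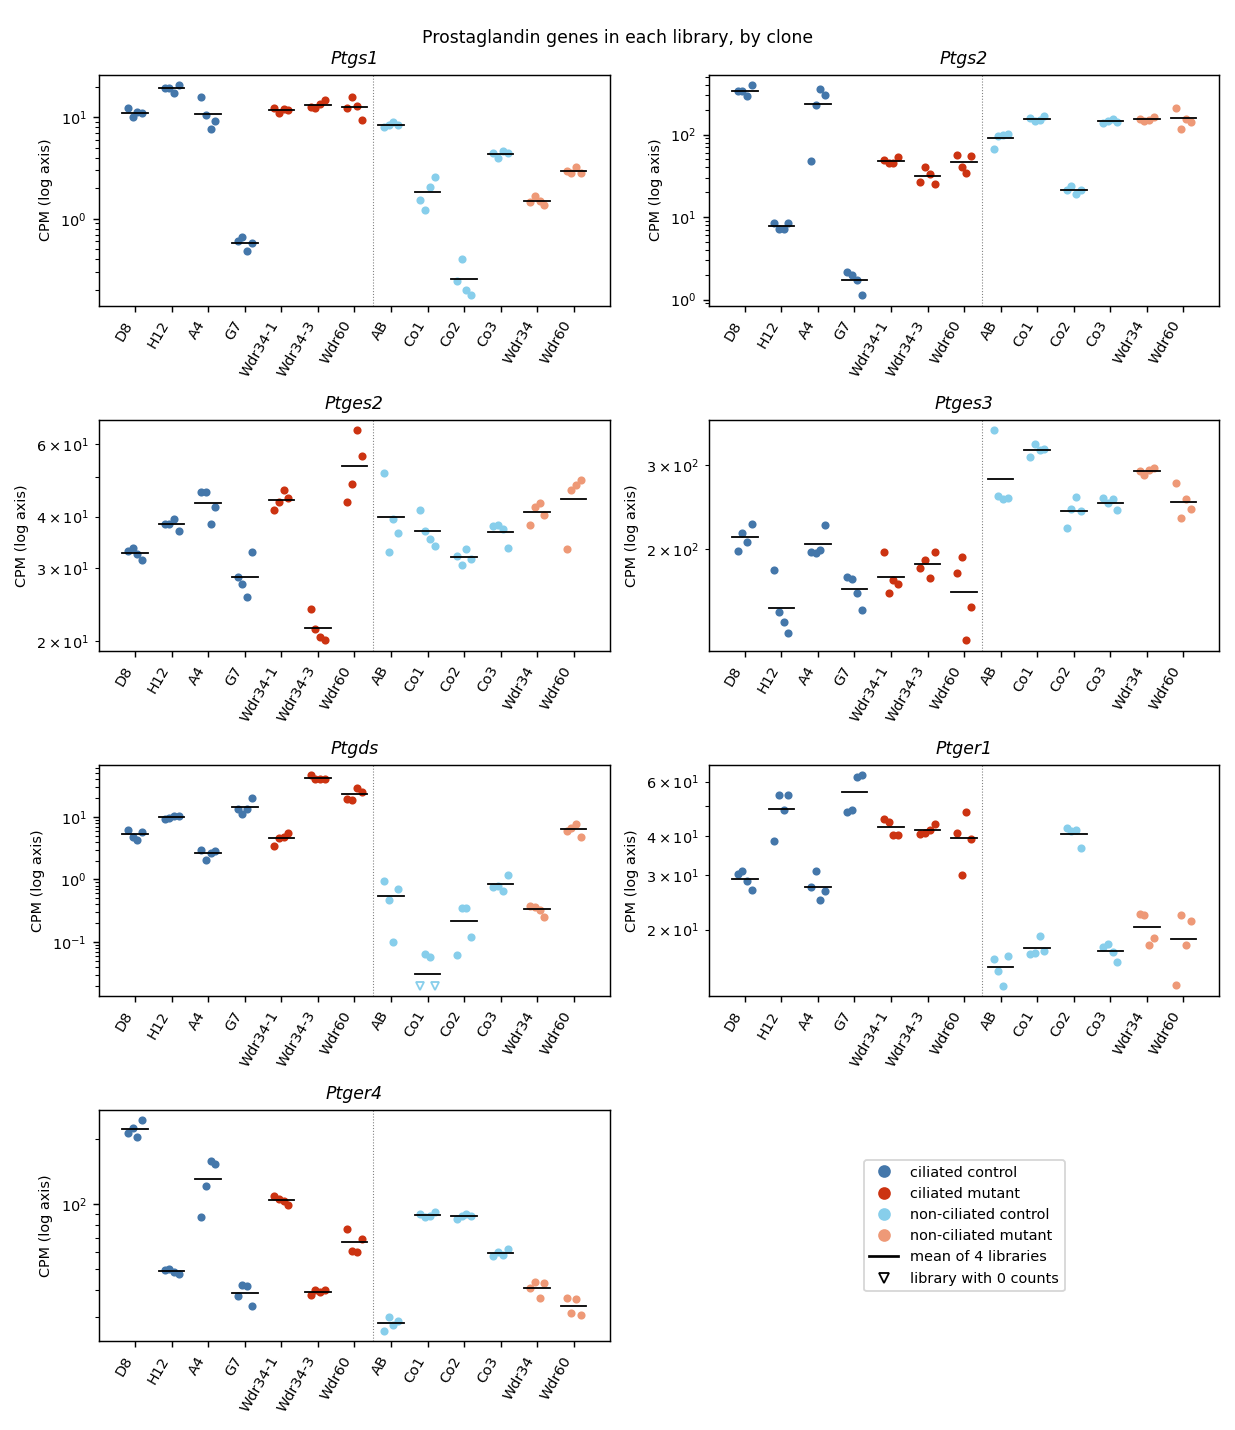
Normalised level of the 7 tested members in each of the 52 libraries, as CPM on a log axis, by clone. Dots are libraries, black bars are means of 4 libraries, open triangles are libraries with 0 counts, colours give state and genotype and the dotted line separates ciliated from non-ciliated clones. Ptgds runs from 0 counts in 2 libraries of Co1 to 46.5 CPM in Wdr34-3, while Ptges3 stays between 128 and 356 CPM.

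Ptgds makes prostaglandin D from prostaglandin H and, in its secreted form, binds small lipophilic molecules as a lipocalin. It lies at chr2:25466709-25470046 on the minus strand in GENCODE vM21, which is on GRCm38. In ciliated cells its 4 libraries were at 46.5, 39.9, 41.1 and 39.9 CPM in Wdr34-3, at 19.6, 18.7, 29.2 and 25.1 CPM in Wdr60 and at 3.38, 4.54, 4.76 and 5.58 CPM in Wdr34-1. The control libraries were at 6.11, 4.79, 4.27 and 5.81 CPM in D8, at 9.40, 9.76, 10.5 and 10.5 CPM in H12, at 2.93, 2.04, 2.64 and 2.84 CPM in A4 and at 13.2, 11.3, 13.5 and 19.8 CPM in G7. Wdr34-3 stood above every control library, the means of Wdr34-3 and Wdr60 stood above all 4 control means, and Wdr34-1 lay among the controls, above only A4. The libraries of Wdr60 overlapped with those of G7.

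Over clones, Ptgds was at 23.2 ± 18.6 CPM (SD, n = 3) in ciliated mutants and 8.09 ± 5.24 CPM (SD, n = 4) in controls. The fit over libraries gave a log2 fold change of 1.50 (SE 0.40, adjusted p = 0.0345, edgeR's quasi-likelihood test), and Ptgds was 1 of 7 tested members called, at a background of 0.644% of all genes (0.418% higher, 0.226% lower). Ptgds was taken into the set with its higher level in mutants known, so this count is no test of the members. Because libraries of a clone are technical, these p-values measure the spread between libraries of few clones. Over the clone means the exact 2-sided permutation test gave p = 0.286, where 3 clones against 4 can reach 0.0286. The call was not met without Wdr34-3 (log2 fold change 0.76, adjusted p = 0.293), Wdr60 (1.49, 0.0586), D8 (1.34, 0.138) or A4 (1.20, 0.102), nor with the libraries of each clone summed (1.47, adjusted p = 1, edgeR), with voomLmFit (1.15, 1), under the replicate block (1.51, 0.0577) or without any 1 of the replicate numbers (adjusted p = 0.131 to 0.206).

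In non-ciliated cells Ptgds was at 5.98, 6.75, 7.67 and 4.85 CPM in Wdr60 and at 0.380, 0.367, 0.325 and 0.250 CPM in Wdr34. The control libraries were at 0.951, 0.466, 0.0989 and 0.692 CPM in AB, at 0, 0.0641, 0.0576 and 0 CPM in Co1, at 0.0611, 0.353, 0.346 and 0.118 CPM in Co2 and at 0.757, 0.784, 0.654 and 1.19 CPM in Co3. Wdr60 stood above every control library, while Wdr34 lay among the controls. The level in Co1 was below that of 3 counts in every library.

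Over clones the levels were 3.32 ± 4.23 CPM (SD, n = 2) in mutants and 0.412 ± 0.361 CPM (SD, n = 4) in controls. The fitted log2 fold change was 2.98 (SE 0.64, adjusted p = 0.00332, edgeR), and Ptgds was the 1 member called of 7 tested, at a background of 3.06% (0.491% higher, 2.57% lower). Here too its higher level in mutants was known when the set was chosen, so the count is no test of the members. The exact 2-sided permutation test over clones gave p = 0.267, where 2 clones against 4 can reach 0.0667. Without Wdr60 the log2 fold change of the remaining clone Wdr34 was -0.31 (adjusted p = 0.834, edgeR), without Co3 Ptgds was below the filter, with the libraries of each clone summed it was 3.01 (adjusted p = 0.976, edgeR), and with voomLmFit it was 2.58 (adjusted p = 0.587).

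The mutant clones thus differed among themselves in Ptgds. Wdr34-3 was 9.17 times Wdr34-1, and non-ciliated Wdr60 was 19.1 times non-ciliated Wdr34. Tested singly against the controls of its state with edgeR, Ptgds was called in Wdr34-3 (log2 fold change 2.34, SE 0.40, adjusted p = 0.000292), ciliated Wdr60 (1.51, SE 0.42, 0.0345) and non-ciliated Wdr60 (3.90, SE 0.58, 0.000184). Each of these rests on 1 clone, so its p-value holds no spread between mutant clones. The call in ciliated Wdr60 was lost under the replicate block (1.51, adjusted p = 0.0653) and without D8 (1.35, 0.0882). The shares of all genes called were 5.8%, 1.93% and 3.41% in these clones. It was -0.83 (SE 0.49, adjusted p = 0.415) in Wdr34-1 and -0.31 (SE 0.80, adjusted p = 0.834) in non-ciliated Wdr34, where 0.679% and 2.24% of genes were called, so the higher level was measured in Wdr60 in both states, which may be 1 clone, and in Wdr34-3, and not in Wdr34-1 or non-ciliated Wdr34. Cell type markers differed in Wdr34-3 too. Of the fibroblast list, Dcn was called higher (6.28, adjusted p = 1.01e-07, edgeR) and Col1a1, the other one tested, was at -0.35 (adjusted p = 0.691). Of 11 tested renal epithelium markers Gata3 was called higher (2.83) and Krt8 (-2.81) and Krt18 (-2.35) lower, and of 2 macrophage markers Cd68 was called lower (-1.57). Their part in the Ptgds level was not tested. Control clones differed too. Each against the other 3, Ptgds was called higher in G7 (1.283, adjusted p = 0.00747, edgeR) and lower in A4 (-1.92, 0.00716). It was also called lower in Co1 (adjusted p = 0.0120, edgeR), where 0 or 1 count a library is too few for a fold change. The backgrounds were 18.2%, 2.25% and 2.18%.

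**Figure D2:**
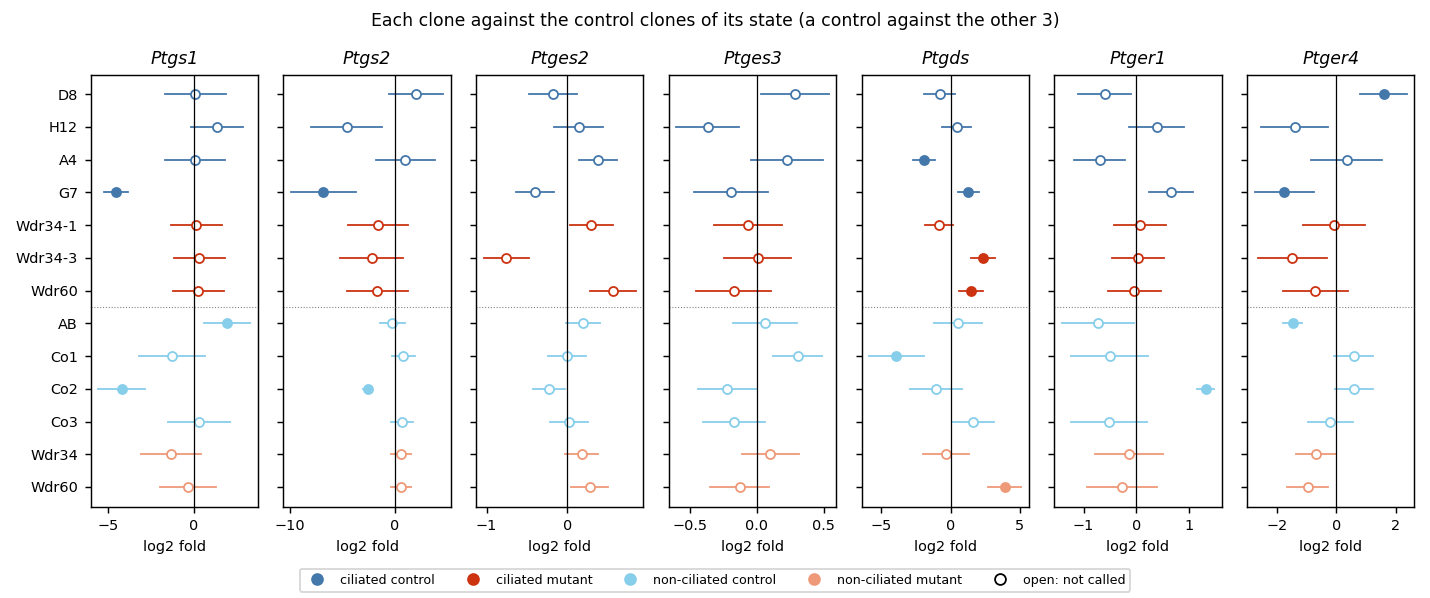
Log2 fold change of each tested member in single clones against the control clones of its state, a control clone being set against the other 3, with 95% intervals from edgeR. Filled points are called and open points are not. Ptgds is called higher in Wdr34-3, in Wdr60 in both states and in the control clone G7, and lower in the control clones A4 and Co1. The cyclooxygenase genes are called lower in the control clones G7 and Co2, and Ptgs1 is called higher in AB.

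Ptgs1, the cyclooxygenase held to be constitutive, lies at chr2:36230426-36252272 on the plus strand. In ciliated controls its clone means were 11.1 ± 0.952 CPM in D8, 19.4 ± 1.40 in H12, 10.9 ± 3.57 in A4 and 0.584 ± 0.0713 in G7 (SD over 4 libraries, here and below), and in ciliated mutants 11.8 ± 0.618 in Wdr34-1, 13.3 ± 1.16 in Wdr34-3 and 12.7 ± 2.67 in Wdr60. In non-ciliated controls they were 8.49 ± 0.445 CPM in AB, 1.86 ± 0.606 in Co1, 0.255 ± 0.102 in Co2 and 4.38 ± 0.283 in Co3, and in the mutants 1.50 ± 0.127 in Wdr34 and 2.97 ± 0.193 in Wdr60. All mutant clones lay within the range of the control clones of their state. G7 and Co2 were the low clones, and H12 had 33.2 times the level of G7.

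The log2 fold change of Ptgs1 in mutants was 0.26 in ciliated cells (SE 0.42, adjusted p = 0.787, edgeR; exact permutation over clones p = 0.743) and -0.75 in non-ciliated cells (SE 0.57, adjusted p = 0.391, edgeR; exact permutation p = 1). Neither passed the test. The first turned to -0.14 without G7 and the second to 0.04 without AB. Without Co2, the low clone, the second was -1.14 (adjusted p = 0.0342, edgeR) and was called. Non-ciliated Wdr34 alone was also called without Co2, at -1.70.

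Ptgs2, the inducible cyclooxygenase, lies at chr1:150100031-150108227 on the plus strand. In ciliated controls it ran from 1.73 ± 0.441 CPM in G7 and 7.86 ± 0.766 in H12 to 233 ± 135 in A4 and 339 ± 44.7 in D8. The libraries of A4 were spread widely, at 47.5, 228, 359 and 298 CPM, with the lowest in replicate 1. The ciliated mutants were at 48.1 ± 4.23 CPM in Wdr34-1, 31.5 ± 6.81 in Wdr34-3 and 46.0 ± 10.9 in Wdr60. They thus lay close together, inside a control range in which D8 was 195 times G7.

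In non-ciliated cells Ptgs2 was at 91.1 ± 16.3 CPM in AB, 156 ± 9.62 in Co1, 21.4 ± 1.90 in Co2 and 146 ± 6.68 in Co3, and at 154 ± 7.88 in Wdr34 and 157 ± 39.9 in Wdr60. Co2 was the low clone, with a 7.31-fold lower level than Co1, and the mutants lay beside Co1 and Co3. The log2 fold change in mutants was -1.79 in ciliated cells (SE 0.76, adjusted p = 0.191, edgeR; exact permutation over clones p = 0.886) and 0.59 in non-ciliated cells (SE 0.34, adjusted p = 0.247, edgeR; exact permutation p = 0.533). Neither passed the test, and the ciliated value passed it without H12 (-2.18, adjusted p = 0.0434) or without G7 (-2.20, 0.0113), the clones lowest in Ptgs2. The sign of the ciliated value rests on how clones are weighed, since the mean difference of the clones' log2 levels was 0.41 and voomLmFit gave 0.61 (adjusted p = 1).

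Between control clones both cyclooxygenases were called. Against the other 3 clones, Ptgs1 was lower in G7 (log2 fold change -4.54, adjusted p = 6.51e-09, edgeR) and Co2 (-4.20, 4.21e-05) and higher in AB (1.98, 0.0299), and Ptgs2 was lower in G7 (-6.82, 0.000940) and Co2 (-2.59, 2.94e-08). In G7, Co2, AB, H12 and Co3, 18.2%, 12.9%, 6.06%, 4.08% and 2.6% of all genes were called. H12 had a Ptgs2 difference of -4.60 that did not pass (adjusted p = 0.0516). G7 and Co2 are also the clones with low Cdh1 and Epcam and with higher Pax2 (310 and 277 CPM) and Lrp2 (log2 fold change 4.37 and 2.63 against the other controls, edgeR), and the part of these differences in their cyclooxygenase levels was not tested.

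Ptges2, a prostaglandin E synthase anchored in membranes, lies at chr2:32395896-32405772 on the plus strand. In ciliated cells its clone means were 32.6 ± 0.879 CPM in D8, 38.3 ± 0.990 in H12, 43.1 ± 3.56 in A4 and 28.6 ± 3.12 in G7, and 43.9 ± 2.09 in Wdr34-1, 21.4 ± 1.69 in Wdr34-3 and 53.0 ± 9.39 in Wdr60. The mutant means fell on both sides of the control means, with Wdr34-1 and Wdr60 above all of them and Wdr34-3 below. The libraries of Wdr34-1 and Wdr60 overlapped with those of A4, while those of Wdr34-3 lay below every control library. As a group the difference did not pass the test (0.14, SE 0.16, adjusted p = 0.680, edgeR; exact permutation p = 0.857). Singly, Ptges2 was -0.75 in Wdr34-3 (SE 0.14, adjusted p = 0.000444), 0.57 in Wdr60 (SE 0.14, adjusted p = 0.0160) and 0.30 in Wdr34-1 (adjusted p = 0.250), all under the fold limit.

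In non-ciliated cells Ptges2 was at 40.0 ± 7.87 CPM in AB, 36.9 ± 3.35 in Co1, 31.9 ± 1.16 in Co2 and 36.8 ± 2.10 in Co3, and at 41.0 ± 2.20 in Wdr34 and 44.1 ± 7.22 in Wdr60. No mutant clone mean lay within those of the controls, at a background of 12.9% of genes without overlap in this comparison (6.95% higher, 5.95% lower), although the libraries did. The log2 fold change was 0.23 (SE 0.08, adjusted p = 0.0610, edgeR; exact permutation p = 0.200).

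Ptges3, at chr10:128058954-128077272 on the plus strand, had close levels in mutants and controls. Its clone means ran from 150 to 212 CPM in ciliated controls and from 162 to 186 CPM in ciliated mutants, and from 241 to 324 CPM in non-ciliated controls with 251 ± 18.5 and 292 ± 4.29 CPM in the mutants Wdr60 and Wdr34. The log2 fold change in mutants was -0.07 in ciliated cells (SE 0.08, adjusted p = 0.667, edgeR) and -0.01 in non-ciliated cells (SE 0.08, adjusted p = 0.941, edgeR), and the 95% intervals ran from -0.24 to 0.09 and from -0.18 to 0.15.

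Ptger4, the EP4 receptor, which raises cyclic AMP through the stimulatory G protein, lies at chr15:5206661-5244187 on the minus strand. In ciliated cells it was at 221 ± 16.9 CPM in D8, 48.9 ± 1.20 in H12, 130 ± 32.7 in A4 and 39.0 ± 3.89 in G7, and at 104 ± 4.50 in Wdr34-1, 39.4 ± 0.988 in Wdr34-3 and 66.7 ± 7.94 in Wdr60. All mutants lay within the control range, and Wdr34-1 was 2.64 times Wdr34-3. The control clones took the same order as for Ptgs2, with D8 first, then A4, H12 and G7. In non-ciliated cells Ptger4 was at 28.2 ± 1.78 CPM in AB, 89.4 ± 1.94 in Co1, 88.0 ± 1.91 in Co2 and 59.5 ± 1.98 in Co3, and at 41.1 ± 3.11 in Wdr34 and 33.9 ± 3.20 in Wdr60. Both mutants were below 3 of the 4 controls and above AB.

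The log2 fold change of Ptger4 in mutants was -0.65 in ciliated cells (SE 0.33, adjusted p = 0.274, edgeR; exact permutation p = 0.657). In non-ciliated cells it was -0.82 (SE 0.23, adjusted p = 0.0185, edgeR), which passed the test but not the fold limit, and the exact permutation test over clones gave p = 0.400. Without AB it was -1.08 (adjusted p = 1.33e-06) and was called. Singly, Wdr34-3 was at -1.49 (SE 0.56, adjusted p = 0.0641) and non-ciliated Wdr60 at -0.97 (adjusted p = 0.0611). Ptger4 was called in Wdr34-3 with DESeq2 (-1.49, adjusted p = 0.0128), without H12 (-1.72, 0.0323), without G7 (-1.76, 0.00597) and without A4 replicate 1 and G7 replicate 4 (-1.57, 0.0496), and in non-ciliated Wdr60 without AB (-1.22, 1.62e-05). Among controls Ptger4 was called lower in G7 (-1.76, 0.00491) and AB (-1.48, 3.12e-06) and higher in D8 (1.59, 0.00721). The shares of all genes called in G7, AB and D8 were 18.2%, 6.06% and 5.02%.

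Ptger1, the EP1 receptor, which acts through calcium, lies at chr8:83666678-83672753 on the plus strand. With no strand setting stated, its counts are less certain than those of the other members. Its clone means were 29.2 ± 1.86 CPM in D8, 48.9 ± 7.34 in H12, 27.5 ± 2.54 in A4 and 55.4 ± 8.16 in G7, and the ciliated mutants lay between 39.5 and 42.7 CPM. In non-ciliated cells Co2 had 40.6 ± 2.61 CPM and the other controls 15.1 to 17.4 CPM, with 20.3 ± 2.39 in Wdr34 and 18.7 ± 4.08 in Wdr60. Co2 stood apart from all other non-ciliated clones. The difference between mutants and controls passed the test in neither state (0.03, SE 0.14, adjusted p = 0.945, and -0.21, SE 0.23, adjusted p = 0.560, edgeR), and without Co2 the latter was 0.24.

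**Figure D3:**
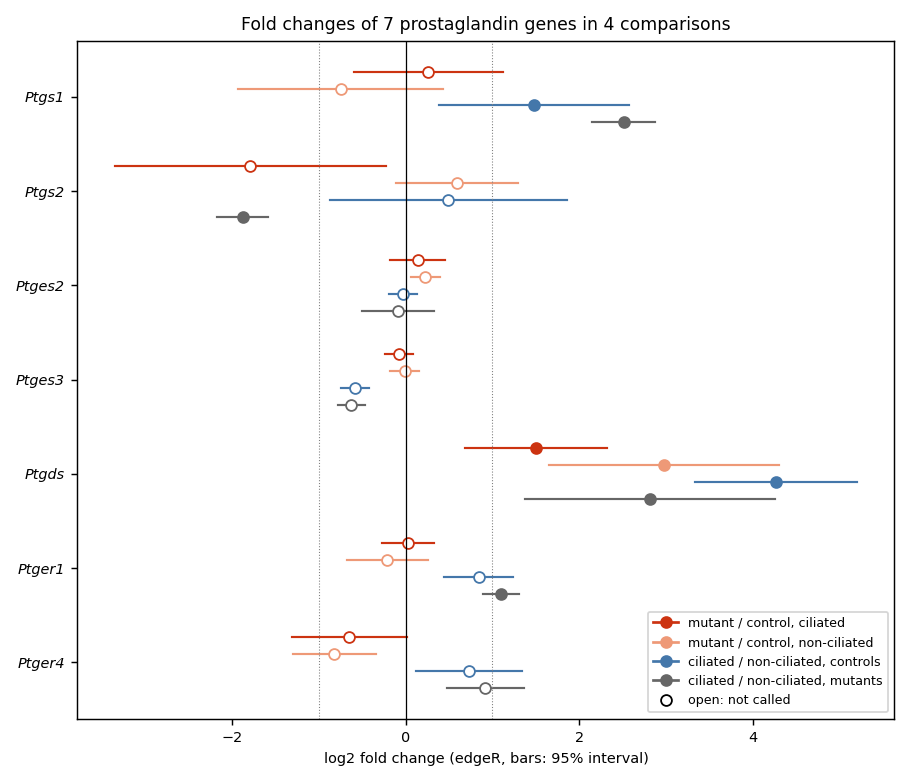
Log2 fold change with its 95% interval from edgeR for the 7 tested members in 4 comparisons: mutants against controls in ciliated and in non-ciliated cells, and ciliated against non-ciliated cells in control and in mutant clones. Filled points are called, open points are not, and dotted lines mark the fold limit of 1 in either direction. Ptgds is to the right of the limit in all 4 comparisons.

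Whether the mutant effect differed between the states was tested as an interaction over 12544 genes, of which 1.19% were called (1.12% higher, 0.0638% lower). Of the members, 0 of 7 were called by edgeR and 0 of 7 by DESeq2, and 1 of 7, Ptgs2, had an unadjusted p under 0.05. For Ptgs2 the ciliated effect minus the non-ciliated effect was -2.38 (SE 0.88, adjusted p = 0.160) in this fit and -0.29 (adjusted p = 1) with voomLmFit, in which the ciliated effect had the opposite sign. For Ptgds the difference was -1.46 (SE 0.74, adjusted p = 0.353). Leaving out H12 or G7 gave a called Ptgs2 difference of -2.77 (adjusted p = 0.0376) or -2.78 (0.00515).

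The states were compared within each genotype, as ciliated minus non-ciliated. In control clones 2 of 7 tested members were called, both higher in ciliated cells, Ptgds (log2 fold change 4.27, SE 0.46, adjusted p = 1.84e-09, edgeR) and Ptgs1 (1.48, SE 0.54, adjusted p = 0.0177, edgeR), at a background of 10.3% of genes (6.29% higher, 3.99% lower). Ptger1 (0.84, adjusted p = 0.000363), Ptger4 (0.73, 0.0347) and Ptges3 (-0.58, 1.92e-07) passed the test under the fold limit. Ptger1 was called without Co2 (1.29, adjusted p = 1.20e-08, edgeR) and Ptger4 without G7 (1.01, 0.00229). The clone means did not overlap for Ptgds and Ptges3 (23.2% of all genes did not), with an exact permutation p of 0.0286, the smallest that 4 clones against 4 can give. Ciliated controls were thus higher in Ptgds, by 8.09 against 0.412 CPM, and lower in Ptges3, by 182 ± 30.2 against 274 ± 37.4 CPM (SD, n = 4). The clone means of Ptgs1 overlapped (exact permutation p = 0.343), and its call was lost with clones summed (1.47, adjusted p = 0.385) and with voomLmFit (1.31, 0.254). The call was also lost without Co1 (1.26, 0.0827), Co2 (1.09, 0.0531) or H12 (1.02, 0.137). Leaving out replicate 1 (1.39, adjusted p = 0.0597, edgeR) or replicate 2 (1.45, 0.0533) lost it too.

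In mutant clones 3 members were called higher in ciliated cells and 1 lower, at a background of 16.9% (10.7% higher, 6.24% lower). Ptgds rose by 2.82 (SE 0.69, adjusted p = 0.00130), Ptgs1 by 2.51 (SE 0.18, 1.08e-10) and Ptger1 by 1.10 (SE 0.10, 3.86e-09) on the log2 scale, and Ptgs2 fell by 1.88 (SE 0.14, 3.12e-10, all edgeR). The 2 cyclooxygenases thus moved in opposite directions, Ptgs1 from 2.23 ± 1.04 to 12.6 ± 0.752 CPM and Ptgs2 from 155 ± 1.72 to 41.8 ± 9.05 CPM (SD over clones, n = 2 and 3). Their clone means did not overlap, nor did those of Ptges3 and Ptger1, where 55.4% of all genes did not overlap (26.9% higher, 28.4% lower), and the exact permutation p was 0.10, the smallest that 3 clones against 2 can give. The clone means of Ptgds overlapped (exact permutation p = 0.30), and its call was lost with clones summed (2.79, adjusted p = 0.216, edgeR). Ptger4 (0.92, adjusted p = 0.000704, edgeR) and Ptges3 (-0.63, 2.73e-07) passed the test under the fold limit. Ptger4 was called without Wdr34-3 (1.21, adjusted p = 4.16e-07, edgeR) and without non-ciliated Wdr34 (1.06). In control clones the Ptgs2 difference was 0.49 (SE 0.67, adjusted p = 0.542, edgeR), but -0.36 without D8, -1.66 with voomLmFit and -1.40 as the mean difference of the clones' log2 levels, so its sign changed with the fit. These comparisons share clones with those of mutants and controls, and the permutation tests take the clones of the 2 states as separate, which the mutant clones may not be.

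Several members lie on chromosomes whose genes were shifted as a whole in 1 or 2 clones. The genes of chromosome 2 had a median log2 deviation from the control mean of -0.36 in Wdr34-3 (938 genes) and of -0.03 to 0.05 in the other clones. Ptges2 was at -0.71 there and its 54 neighbours within 2 Mb at a median of -0.45. Ptgds, on the same chromosome 4.56 Mb from Wdr34, was at 2.63 in that clone, above its control mean, while its 64 neighbours were at -0.43. Ptgs1 was at 1.09 with its neighbours at -0.39. In Wdr34-3 Ptges2 was thus lower together with its chromosome, and Ptgds and Ptgs1 were not.

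On chromosome 1 the median was -0.45 in Co2 and -0.38 in G7 (666 genes) and 0.05 to 0.18 in the other clones. Ptgs2 was at -1.93 in Co2 and -4.09 in G7, further down than the chromosome. H12, with a chromosome median of 0.05, was at -1.95. On chromosome 15 the median was -0.34 in Wdr34-3 (466 genes), and Ptger4 was at -1.11 there with its 14 neighbours at 0.07. In the non-ciliated mutants the chromosome was near 0, but these neighbours were at -0.39 in Wdr34 and -0.35 in Wdr60, with Ptger4 at -0.55 and -0.83, and between -0.0029 and 0.0265 in the non-ciliated controls. The neighbours were also lower in Wdr34-1 (-0.26), H12 (-0.21) and ciliated Wdr60 (-0.18), where Ptger4 was at 0.28, -0.80 and -0.36, while in AB and G7 Ptger4 was at -1.10 and -1.13 with its neighbours near 0. Ptger4 thus did not always move with its neighbours. The part of chromosome or regional dosage in these levels was not tested.

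**Figure D4:**
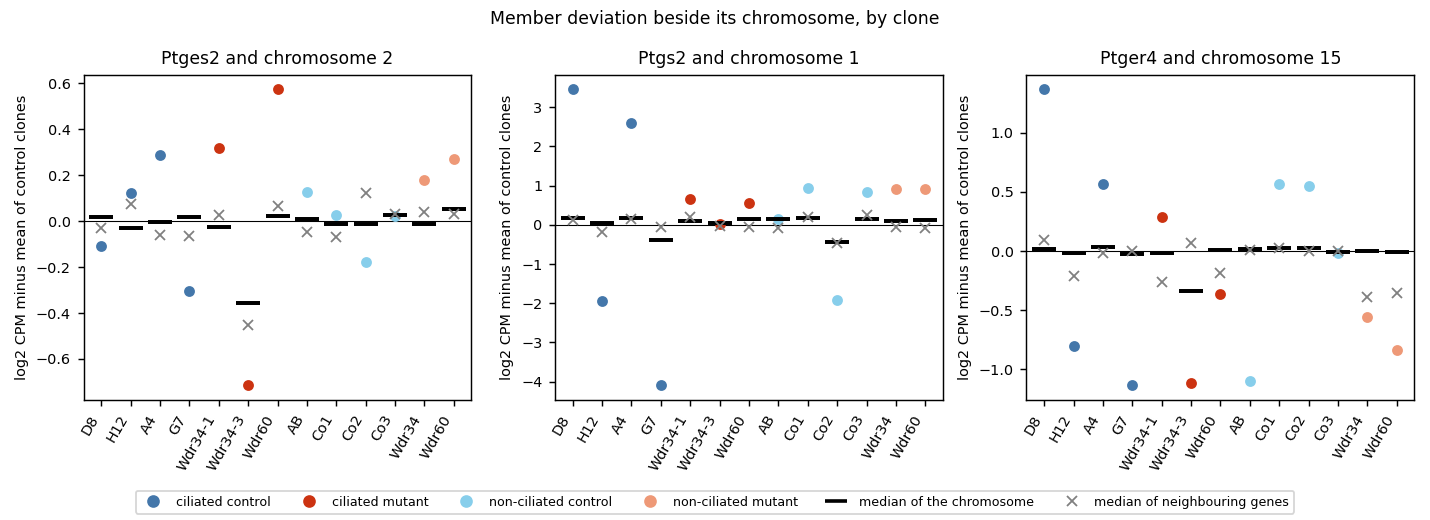
Log2 CPM of Ptges2, Ptgs2 and Ptger4 minus the control mean of the state, by clone (dots), with the median of all genes on the member's chromosome (black bars) and of its neighbours within 2 Mb (grey crosses). The chromosome 2 median is at -0.36 in Wdr34-3, where Ptges2 is at -0.71, and the chromosome 1 medians of Co2 and G7 are at -0.45 and -0.38.

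The other genes of the pathway were taken by list. Over all genes the median log2 fold change of mutants was -0.01 in ciliated and 0.00 in non-ciliated cells, and over the members it was 0.03 and -0.01. Of 7 tested phospholipases, which release arachidonic acid, edgeR called 0 in either state, with 1 and 3 at an unadjusted p under 0.05 and 0 called by DESeq2. The median was 0.08 in ciliated and 0.09 in non-ciliated cells. Pla2g6, a calcium-independent phospholipase, was lower in ciliated mutants (-0.46, adjusted p = 0.0345), and Pla2g12a was higher in non-ciliated mutants (0.69, 0.00296), both under the fold limit. Between states 4 of 7 phospholipases passed the adjusted p as lower in ciliated controls and 5 of 7 in ciliated mutants, all of them under the fold limit, where 7221 of 11856 genes in controls and 7720 of 11972 in mutants passed the adjusted p in either direction.

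Of 7 tested genes of transport and breakdown, 1 was called in each state, at the backgrounds of 0.644% in ciliated and 3.06% in non-ciliated mutants. Slco2a1, the prostaglandin transporter that takes prostaglandins up into cells, was at 119, 81.5 and 128 CPM in ciliated mutants and 206, 138, 192 and 279 CPM in the controls D8, H12, A4 and G7. All mutants were below all controls. The fitted log2 fold change was -0.91 (SE 0.14, adjusted p = 0.000357, edgeR), under the fold limit except without Wdr60 (-1.04) or H12 (-1.05), with an exact permutation p of 0.0571, and 1.94% of genes did not overlap in this comparison (1.11% higher, 0.828% lower). In non-ciliated cells it was at 103 CPM in Wdr34 and 67.3 CPM in Wdr60 against 106, 198, 186 and 269 CPM in AB, Co1, Co2 and Co3. Again no clone mean overlapped, as for 12.9% of all genes (6.95% higher, 5.95% lower), and Slco2a1 fell by 1.15 (SE 0.20, adjusted p = 0.000556, edgeR; exact permutation p = 0.133). That call was under the fold limit without Wdr60 (-0.87) or Co3 (-0.94) and was lost with clones summed (-1.15, adjusted p = 0.976) and with voomLmFit (-1.11, 0.162). In ciliated cells Slco2a1 did not pass in these fits either (-0.89, adjusted p = 1, and -0.89, 0.260).

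Ptgr1, a reductase that inactivates prostaglandins and leukotriene B4, was at 9.43, 14.2 and 11.4 CPM in ciliated mutants and 7.59, 2.10, 4.82 and 6.45 CPM in controls. The groups did not overlap, and Ptgr1 rose by 1.15 (SE 0.21, adjusted p = 0.00199, edgeR; exact permutation p = 0.0571). The value was under the fold limit without Wdr34-3 (0.99) or H12 (0.89), and the call was lost with clones summed (1.15, adjusted p = 1), with voomLmFit (1.25, 0.427) and without replicate 3 (1.10, 0.0583). The non-ciliated difference was 0.29 (adjusted p = 0.270). The exporter Abcc4 was between 250 and 738 CPM in all clones.

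Of 4 other tested prostanoid synthases, edgeR called 0 in ciliated and 2 in non-ciliated mutants, at the same backgrounds, with 2 at an unadjusted p under 0.05 in each, and DESeq2 called 0 in ciliated mutants. The hematopoietic prostaglandin D synthase Hpgds was at 155 CPM in G7, 23.4 CPM in Wdr34-3 and 2.83 to 5.23 CPM in the other ciliated clones. In non-ciliated cells it was at 12.4 CPM in Co2, 1.71 in Co1 and 0.0956 to 0.338 CPM in the others, for a log2 fold change of -4.05 in mutants (SE 1.10, adjusted p = 0.0146, edgeR; exact permutation p = 0.400). That call was lost without Wdr34 (adjusted p = 0.134) or Wdr60 (0.0660), and without Co1 or Co2 Hpgds was below the filter. In ciliated mutants its log2 fold change was -1.93 with G7 and 1.73 without it, a call in the opposite direction (adjusted p = 0.00250). Its high clones were thus G7 and Wdr34-3 among ciliated cells and Co2 among non-ciliated cells. The carbonyl reductase Cbr3, whose relative Cbr1 can reduce prostaglandin E, was lower in non-ciliated mutants (-2.37, SE 0.53, adjusted p = 0.00439, edgeR), with an exact permutation p of 0.0667, the smallest possible, and did not pass without Wdr60 (-1.48, adjusted p = 0.0521) or without replicate 3 (-2.29, 0.0592). In ciliated mutants Cbr3 was called without Wdr34-1 (-2.20, adjusted p = 0.0109). With clones summed neither Hpgds nor Cbr3 passed (adjusted p = 0.976 for each), nor with voomLmFit (-2.82, adjusted p = 0.811, and -2.83, 0.652), and Hpgds did not pass without replicate 2, 3 or 4 (adjusted p = 0.0751 to 0.0848). Of the synthases not tested, the prostacyclin synthase Ptgis was at most 0.328 CPM in a clone and the thromboxane synthase Tbxas1 at most 1.38 CPM, in G7.

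Between the states, where 10.3% of all genes were called in control clones, the synthases and breakdown genes called were Cbr1 (log2 fold change 1.20, adjusted p = 1.65e-09, edgeR), Cbr3 (1.15, 0.00211) and Hpgds (3.50, 0.00122), higher in ciliated cells, with Akr1c14 (2.28, 8.36e-05), and Ptgr1 (-1.39, 8.60e-07), lower in them. Over clones Cbr1 was at 93.4 ± 14.8 CPM in ciliated and 40.8 ± 13.8 CPM in non-ciliated controls (SD, n = 4), and Ptgr1 at 5.24 ± 2.38 and 13.7 ± 4.55 CPM. Neither gene overlapped between the states, as for 23.2% of all genes, with an exact permutation p of 0.0286 for each. The clone means of Cbr3, Hpgds and Akr1c14 overlapped (exact permutation p = 0.171, 0.200 and 0.0857).

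The other prostanoid receptors Ptger3, Ptgfr, Ptgir, Ptgdr, Ptgdr2 and Tbxa2r and the nuclear receptor Pparg were at most 0.307 CPM in any clone. Prostaglandin D therefore had neither of its receptors measured at a level in these cells, while Ptgds and Hpgds reached 41.8 and 155 CPM. Of 8 tested genes of the G protein and cyclic AMP signal, edgeR called 0 in mutants of either state, with 1 and 4 at an unadjusted p under 0.05 and 0 called by DESeq2. Their median was -0.05 in both states.

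**Figure D5:**
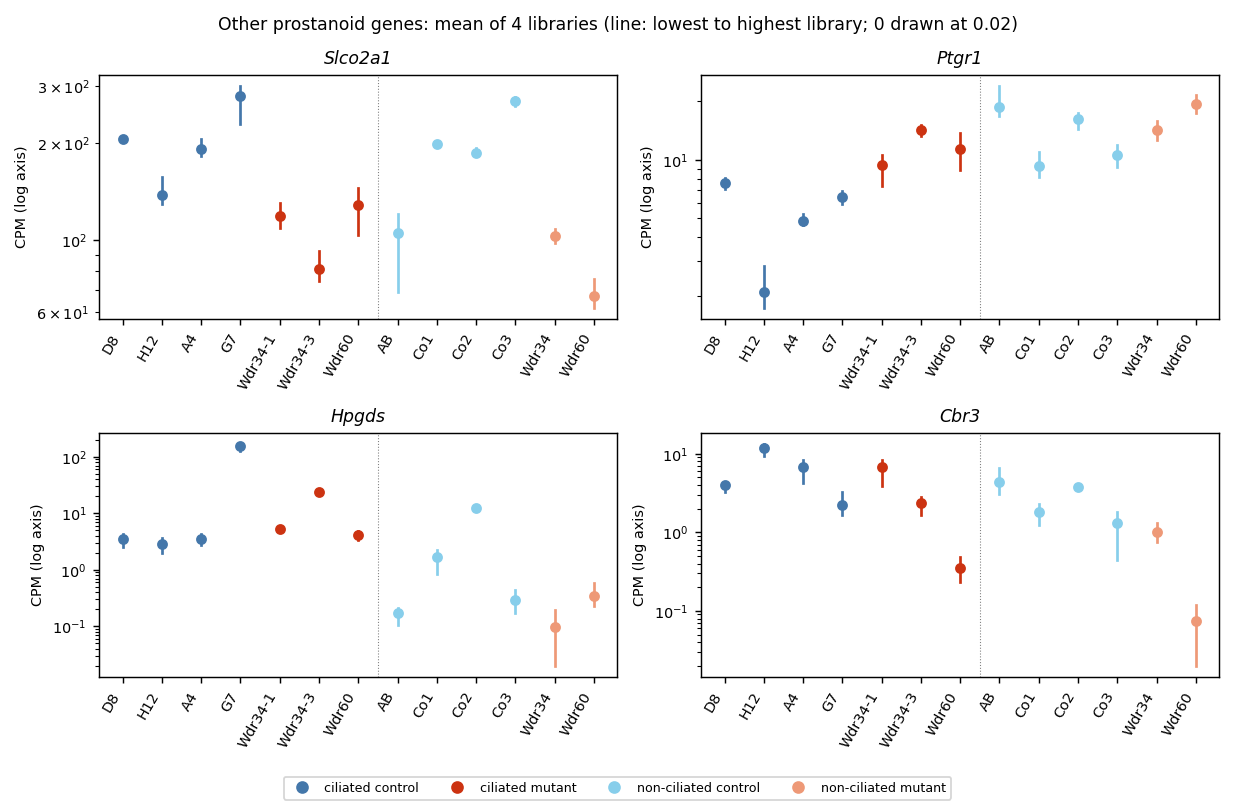
Clone means of Slco2a1, Ptgr1, Hpgds and Cbr3 as CPM on a log axis, with a line from the lowest to the highest library and levels of 0 drawn at 0.02. In both states every mutant clone is below every control clone in Slco2a1, and G7 is highest in Hpgds at 155 CPM.

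By the mean absolute difference of centred log2 levels over the 13 clones, the genes most like Ptgds among 12544 were Parm1 (0.97), Fn3k (0.99) and Cytip (0.99), where the mean absolute deviation of Ptgds itself was 2.16. Those most like Ptgs2 were Spry4 (0.33), Fosl1 (0.36) and Dusp5 (0.38), against 1.64 for Ptgs2 itself. Those most like Ptgs1 were 2610528J11Rik (0.40), Il17re (0.40) and Fhad1 (0.46), against 1.51. Ptges was below the filter over all libraries and was not compared. The likeness of Ptgs2 and Ptgs1 to these genes was thus closer than that of Ptgds, and it describes these 13 clones only.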

How the data were processed

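RNA was sequenced in 52 libraries of 13 sets, each a clone in 1 state, of Cilia-APEX-IMCD3 cells, 4 technical replicate libraries a set. The authors made libraries from total RNA, mapped the read pairs to GRCm38/mm10 by Rsubread in R 3.4.4 and assigned them to gene symbols by featureCounts. What they deposited are the raw counts, without any scaling. Strand and multimapping settings were not given in the sources used here, so overlapping genes and near-identical copies are uncertain. The authors' own tests used DESeq2 1.18.1.

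Tests were run in edgeR 4.0.16 under R 4.3.3 (filterByExpr, TMM, glmQLFit and glmQLFTest, 2-sided, Benjamini-Hochberg over all genes tested). The call rule was an adjusted p below 0.05 together with a change of 1 or more on the log2 scale in either direction. Standard errors are the log2 fold change over the root of F. Means of clones were set against each other by an exact permutation test, 2-sided. Levels are CPM scaled by TMM over all libraries, and per kb of exon in GENCODE vM21 between genes. Deviations for chromosome medians used log2 CPM with a prior count of 2. Of the 24421 symbols, 23204 (95.0%) matched RefSeq genes. Alternatives used DESeq2 1.42.0, limma 3.58.1 (voomLmFit with the clone as a block), other filters and size factors, a replicate block, the libraries of a clone summed, and leaving out each clone, each replicate number, or A4 replicate 1 with G7 replicate 4. The last was chosen after seeing the data. The fits were tested on simulated data.

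The members and the gene lists were chosen with earlier results of these data known, Ptgds among them for being higher in mutants, so no p-value here is independent of that choice. The genes named were all 10 members, the edited genes, other pathway genes called in a mutant comparison or between the states in control clones, the other synthases and receptors, and for Ptgds, Ptgs1 and Ptgs2 the 3 genes nearest in pattern. Pla2g6, Pla2g12a and Abcc4 and the cell type markers given singly were named after their values were seen. The level of 1 other gene is not reported here.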

Additional observations from a re-analysis of the deposited data

Results flagged for a closer look

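Of 105 sets of libraries or clones of the members examined by Dixon's test at the 95% level, 6 held 1 value far from the others, about the 1 in 20 that chance alone gives. Ptges3 was at 356 CPM in AB replicate 1 and 255 to 259 CPM in the other libraries of that clone, and at 225 CPM in A4 replicate 4 against 196 to 199 CPM. Ptges2 was at 33.6 CPM in Co3 replicate 4 against 37.4 to 38.1 CPM. Ptger1 was at 19.1 CPM in Co1 replicate 3 against 16.7 to 17.0 CPM, and at 36.7 CPM in Co2 replicate 4 against 41.5 to 42.4 CPM. Among the non-ciliated control clones, Ptger1 was at 40.6 CPM in Co2 and 15.1 to 17.4 CPM in AB, Co1 and Co3.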

How the results depend on the processing

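Over all alternatives, 874 of the members' fold changes kept their direction and their side of the threshold, 22 passed it in addition, 25 no longer passed it and 49 reversed. The cause was not tested unless stated. The members called in ciliated mutants, 1 in the fit reported, were 0 under the replicate block (Ptgds 1.51, adjusted p = 0.0577), with clones summed, with voomLmFit and at an adjusted p under 0.01, were 0 in all 4 cases without a replicate number, with Ptgds at an adjusted p of 0.131 to 0.206 with fewer libraries, and ranged from 0 to 2 without a clone. In non-ciliated mutants the 1 member called became 0 with at least 10 counts in every library, where Ptgds was not tested, with clones summed and with voomLmFit, 2 without the fold limit, and 0 to 2 without a clone. Between states in controls, 2 became 0 with at least 10 counts, 1 with clones summed, voomLmFit or an adjusted p under 0.01, 5 without the fold limit, 1 to 2 without a replicate number and 1 to 3 without a clone. Between states in mutants, 4 became 3 with clones summed, where Ptgds was lost (2.79, adjusted p = 0.216), or with at least 10 counts, 6 without the fold limit and 4 to 5 without a clone. The interaction called 0 to 1 without a clone. Among single clones, non-ciliated Wdr34 called 0 to 1 and non-ciliated Wdr60 1 to 2 without a clone, Wdr34-3 called 2 with DESeq2, 2 without A4 replicate 1 and G7 replicate 4 and 1 to 2 without a clone, and ciliated Wdr60 called 0 under the replicate block (Ptgds 1.51, adjusted p = 0.0653) and 0 to 1 without a clone. The replicate block changed no other count of members called. Same-numbered libraries did not deviate together (mean r of 0.0262 in ciliated and -0.00729 in non-ciliated cells), so the numbers were not taken as pairs.

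The fold changes that reversed are given with the range over leaving out each clone and replicate number and, in brackets, what reversed them. In ciliated mutants they were Ptges2 -0.14 to 0.43 (without Wdr60), Ptger1 -0.13 to 0.22 (without D8, A4 or replicate 1), Ptgs1 -0.14 to 0.75 (without G7), Hpgds -3.14 to 1.73 (without G7) and Ptgs2 0.61 (voomLmFit). In non-ciliated mutants they were Ptges3 -0.13 to 0.10 (without Wdr60, Co1 or replicate 2), Ptgds -0.31 to 3.90 (without Wdr60), Ptgs1 -1.31 to 0.042 (without AB) and Ptger1 -0.37 to 0.24 (without Co2). In the interaction they were Ptges3 -0.16 to 0.064 (without non-ciliated Wdr34, Co2, D8 or A4), Ptgds -2.39 to 1.83 (without non-ciliated Wdr60), Ptger1 -0.20 to 0.44 (without Co2), Ptger4 -0.22 to 0.77 (without Wdr34-1, H12 or G7) and Ptges2 -0.35 to 0.22 (without Wdr34-3, A4 or replicate 2). Between states in controls they were Ptges2 -0.13 to 0.072 (without AB, D8, G7 or replicate 1), Ptges2 0.0079 (voomLmFit), Ptgs2 -0.36 to 0.91 (without D8) and Ptgs2 -1.66 (voomLmFit). Between states in mutants they were Ptges2 -0.38 to 0.21 (without Wdr34-3). In non-ciliated Wdr34 alone they were Ptger1 -0.29 to 0.31 (without Co2). In non-ciliated Wdr60 alone they were Ptgs1 -0.73 to 0.45 (without AB) and Ptger1 -0.43 to 0.18 (without Co2). In Wdr34-1 alone they were Ptges3 -0.14 to 0.013 (without D8), Ptger1 -0.070 to 0.27 (without D8 or A4), Ptger4 -0.35 to 0.52 (without D8 or A4) and Ptgs1 -0.23 to 0.66 (without G7). In Wdr34-3 alone they were Ptger1 -0.12 to 0.24 (without D8 or A4), Ptges3 -0.066 to 0.075 (without H12 or G7) and Ptgs1 -0.058 to 0.83 (without G7). In ciliated Wdr60 alone they were Ptger1 -0.18 to 0.16 (without H12 or G7) and Ptgs1 -0.12 to 0.76 (without G7).

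Over all genes, the 77 calls in ciliated mutants were 129 with DESeq2, 293 with a filter of 1 count, 23 with at least 10 counts in every library, 0 with clones summed, 7 with voomLmFit, 24 to 30 without a replicate number and 54 to 343 without a clone (161 without Wdr34-1, 156 without Wdr34-3, 173 without Wdr60, 215 without H12, 343 without G7). The 368 in non-ciliated mutants were 565, 151, 0 and 9 with that filter of 1 count, of 10 counts, clones summed and voomLmFit, 161 to 357 without a replicate number and 277 to 527 without a clone. The 149 of the interaction were 233 with DESeq2, 49 with at least 10 counts, 0 with either clone-level fit, 7 to 62 without a replicate number and 55 to 585 without a clone (585 without G7, 277 without ciliated Wdr60, 247 without AB, 232 without Wdr34-1, 63 without Wdr34-3, 55 without Co2). The 1219 and 2026 calls between states in controls and mutants were 2522 and 3114 with a filter of 1 count and 660 and 966 with clones summed. Each mutant comparison rests on 2 or 3 clones against 4. Depth limits Ptges, Ptger2, Hpgd and the level of Ptgds in Co1, Co2 and non-ciliated Wdr34, at 0 to 7 counts a library.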
